A study of Drosophila melanogaster with 30 samples.

Results

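Expression of 10 genes that encode laminin chains, integrin subunits and other components of the basement membrane was examined in the heads of *Drosophila melanogaster* selected for olfactory behavior. The 10 genes were taken by symbol from the 17471 genes counted in every library. They are *wb*, *LanA*, *LanB1*, *LanB2*, *mys*, *if*, *mew*, *scb*, *trol* and *vkg*. The list was drawn up because *wb* was lower than the control in both treatments selected on cyclohexanone, so the values of *wb* in those comparisons are a description and carry no test. The question for the 9 other genes was whether partner chains, receptors and collagen IV moved with *wb*.

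The basement membrane is a sheet of extracellular matrix that underlies epithelia and surrounds muscle, fat body, trachea and the nervous system. Its base is laminin, a secreted trimer of an alpha, a beta and a gamma chain, to which collagen IV and the proteoglycan Perlecan are added. Flies have a pair of laminin alpha chains, encoded by *wb* (wing blister) and *LanA*, and these share a single beta chain, LanB1, and a single gamma chain, LanB2. Cells attach to this matrix through integrins, heterodimers of an alpha and a beta subunit. The *mys* gene (myospheroid) encodes the betaPS subunit, which pairs with alpha subunits encoded by *mew* (multiple edematous wings), *if* (inflated) and *scb* (scab). Laminin is a ligand of the integrin that holds the *mew* subunit, and the integrin with the *if* subunit binds ligands with an RGD motif, among them Tiggrin. In the nervous system the matrix and its receptors act in axon guidance, glial wrapping and synapse growth.

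All populations came from an outbred advanced intercross of *Drosophila* Genetic Reference Panel lines and had passed through 30 generations of the T-maze regime. BUT+ and BUT- lines were founded each generation from flies that chose or avoided 0.1% 2,3-butanedione, CYC+ and CYC- lines from flies that chose or avoided 0.01% cyclohexanone, and control lines from flies on a randomly chosen side with no odor. Each treatment had 3 lines and each line 2 samples, and every sample was a pool of 100 whole heads of females aged 3 to 7 days, which gave 30 libraries. A line is a separately bred population, so drift within a line is shared by its 2 samples, and pooled whole heads combine brain, sense organs, muscle, fat, trachea and blood cells. In such bulk samples fewer cells of a type and less RNA per cell cannot be told apart.

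Libraries held 21194086 to 38621924 counts (median 29967406). The gene with the fewest reads among the 10, *wb*, had 390 to 1298 counts per library. Markers of neurons, photoreceptors, olfactory neurons and glia were present in every library, for example *elav* at 87.3 CPM or more, *ninaE* at 24667.0 or more and *Orco* at 69.1 or more. Ovary markers were at or near 0, with *nos* at 0 in 13 libraries and the 3 markers together at 5.07 CPM or less. CPM is the count scaled to a common library total after TMM normalization, which corrects for differences in composition. The first and second samples of the CYC lines stood apart from each other. In CYC+ the summed level of 4 tracheal markers was 64.4 to 77.0 CPM in the first samples and 130.2 to 153.8 in the second, and in CYC- it was 62.4 to 75.3 and 119.7 to 144.2. The 6 muscle markers summed to 2826.4 to 3812.1 CPM in first and 4819.4 to 5601.5 in second CYC+ samples, while in the control both sample numbers overlapped, at 3562.8 to 4288.7 and 3827.7 to 4786.3. The 6 fat body markers were lower in the second sample in all 3 lines of every treatment. Their sum was 65533.0 to 73016.0 CPM in first and 22015.4 to 31811.5 in second CYC- samples. The mean log2 difference was -1.34 there, -0.62 in CYC+, -0.74 in BUT-, -0.49 in the control and -0.19 in BUT+. Total counts were 24909866 to 26730620 in the first and 32025175 to 38138963 in the second CYC+ samples. The authors describe the collection of samples as randomized and spread over several days. The labels give the sample numbers but not the collection day of each sample. The main results from the CYC lines are therefore also given for first and second samples apart.

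Positions below are those of the release 6 genome. The laminin alpha chain genes are *wb* (FBgn0261563, 2L:14263027-14328262, plus strand) and *LanA* (FBgn0002526, 3L:6203831-6218022, minus strand). The beta and gamma chains come from *LanB1* (FBgn0261800, 2L:7811438-7820771) and *LanB2* (FBgn0267348, 3L:9614914-9623980), both on the plus strand. Among the integrin genes 3 are X-linked, *mys* (X:8061645-8070237), *mew* (X:13214409-13258490) and *if* (X:16752189-16783434), and *scb* is on 2R:15248784-15258498 beside the related alpha subunit gene *ItgaPS4*. Perlecan is encoded by *trol* (X:2470460-2545427) and the alpha2 chain of collagen IV by *vkg* (2L:5012144-5028191), which is transcribed away from its partner *Col4a1* at 2L:5029609-5037279. Exons of *mew* overlap those of *CG15742* on the same strand, exons of *trol* hold the microRNA gene *mir-4955*, and introns of *wb* hold *CG32971* and 3 noncoding RNA genes. Whether the authors' counting used strand, and how reads shared by overlapping genes were assigned, is not given in the sources used here, so values of *mew* in particular carry that uncertainty.

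All 10 genes passed the filter of at least 1 CPM in at least 15 libraries, as did 9240 genes in all. Per kilobase of exon, and averaged over 15 lines, *vkg* was the highest of the 10 at 40.2 ± 4.75 CPM per kb (SD, n = 15 lines). The next were *trol* at 24.5 ± 1.97, *mys* at 24.1 ± 1.11 and *if* at 21.6 ± 1.76 CPM per kb, and *trol* and *mys* were closer than their spread. LanB1 and LanB2 transcripts also lay within their spread of each other, at 13.3 ± 1.36 and 12.6 ± 2.08 CPM per kb. The remaining levels were *LanA* at 9.46 ± 1.40, *mew* at 7.62 ± 0.609, *scb* at 6.1 ± 0.555 and *wb* at 1.77 ± 0.417 CPM per kb. Thus *wb* was the minor laminin alpha chain transcript of the head in every treatment. Its coefficient of variation over the 15 lines was 23.6%, which includes the treatment differences that chose the gene, and that of *mys* was 4.61%.

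In the control *wb* was at 39.2 and 37.4 CPM in line 1, 27.8 and 29.5 in line 2, and 26.4 and 26.5 in line 3. CYC- had the lowest values, 16.2 and 16.9, 17.7 and 19.1, and 21.3 and 19.7 CPM in lines 1 to 3. Each of the 6 CYC- libraries was thus below each of the 6 control libraries. CYC+ lay between, at 25.7 and 27.5, 23.3 and 23.0, and 18.1 and 21.5 CPM, and its highest library overlapped the lowest control libraries. The log2 fold change from the control was -0.75 ± 0.13 (SE) in CYC- and -0.43 ± 0.13 in CYC+, or 1.68-fold and 1.34-fold lower. Both sample numbers gave like values. In first and second samples alone, the log2 fold change of CYC- from the control was -0.75 and -0.76, and that of CYC+ was -0.47 and -0.39.

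The medians of the butanedione treatments also lay below the lowest control library of *wb*. BUT+ ranged from 20.4 to 28.1 CPM with a median of 24.0, and BUT- from 20.1 to 35.8 with a median of 23.1. Within BUT- the lines differed, with 35.8 and 32.6 CPM in line 3 and 20.1 to 24.8 in lines 1 and 2. The log2 fold change from the control was -0.36 ± 0.13 in BUT+ and -0.26 ± 0.13 in BUT-, and the latter was -0.51 without BUT- line 3. The comparison of CYC- with BUT- also rested on that line, with a log2 fold change of -0.49 ± 0.13 in all lines and -0.24 without it. All these comparisons share the control or the CYC libraries that chose the gene and were not tested. In the remaining one, BUT+ vs. BUT-, *wb* was not called (log2 fold change -0.10 ± 0.13, adjusted p = 0.839). All adjusted p-values for single genes come from edgeR's quasi-likelihood F test, adjusted by Benjamini and Hochberg's method over all genes tested. The control mean of *wb*, 31.1 CPM, was raised by line 1. Without that line the log2 fold change from the control was -0.58 in CYC-, -0.25 in CYC+, -0.19 in BUT+ and -0.09 in BUT-, and no left-out line turned any of the 4 above 0. Without BUT- line 1 the value of BUT- was -0.11.

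**Figure D1:**
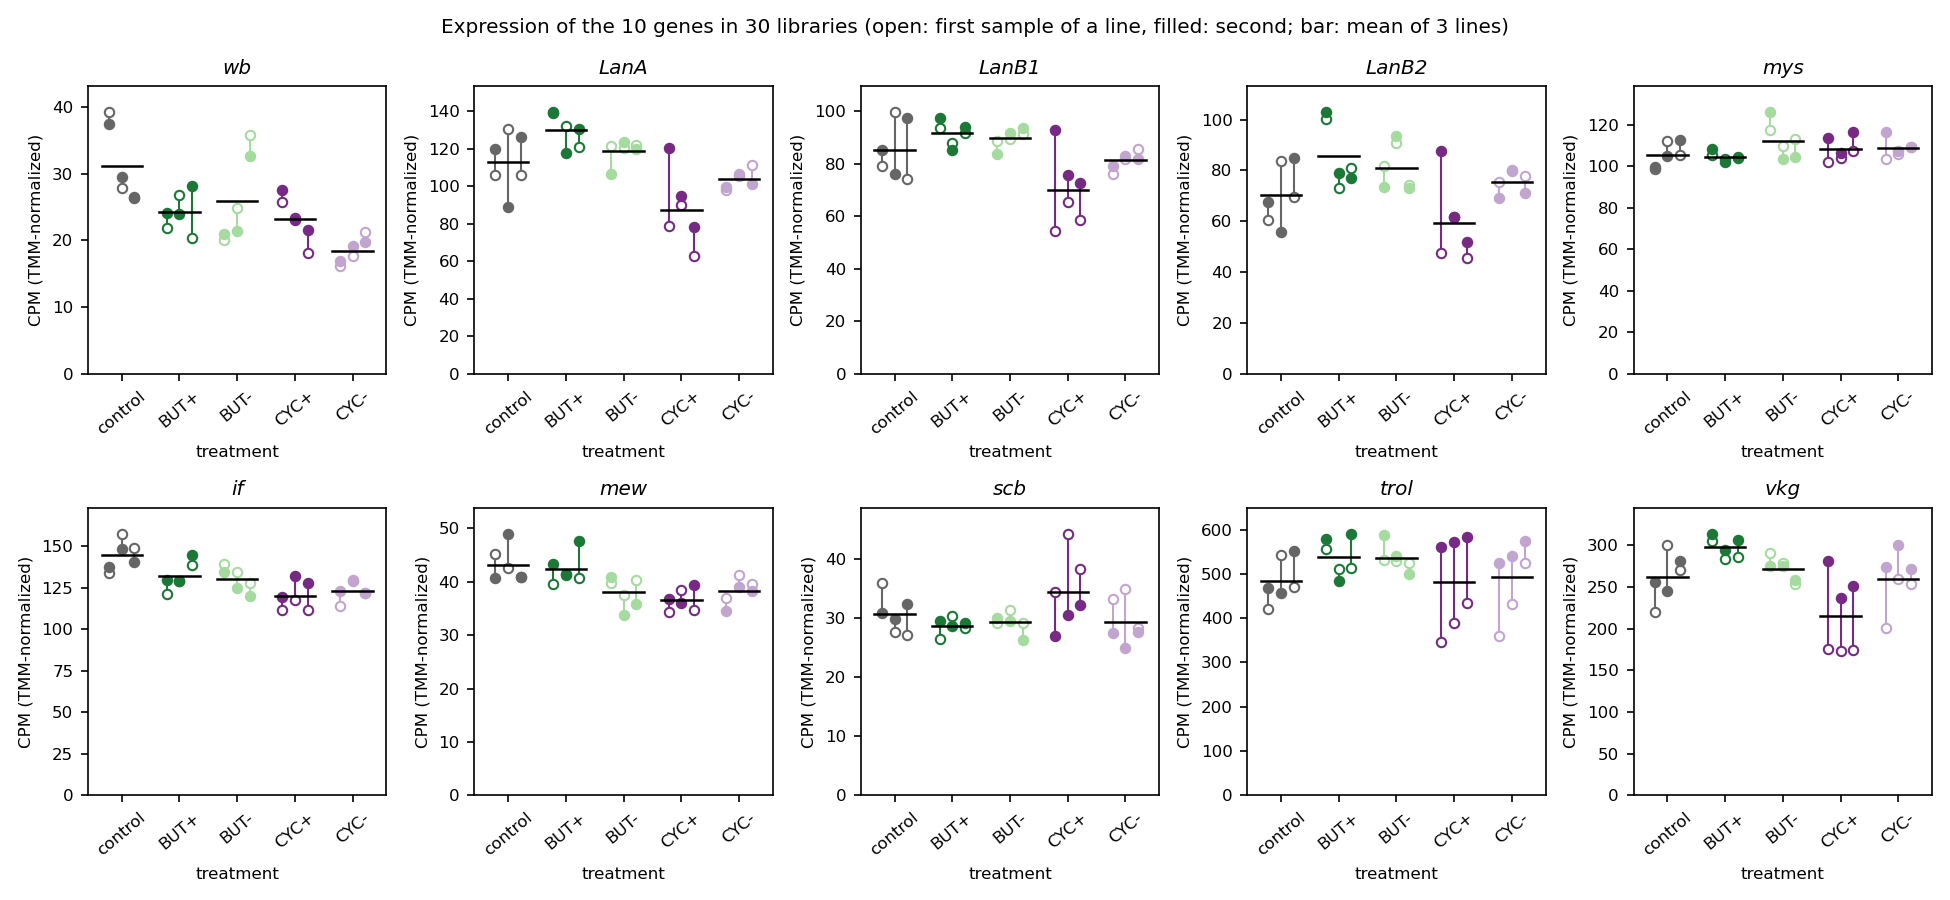
TMM-normalized CPM (vertical axes, from 0) of the 10 genes in each library of the 5 treatments (horizontal axes); open points are first and filled points second samples of a line, joined by a line, and bars are means of 3 lines. The CYC- libraries of wb, at 16.2 to 21.3 CPM, sit below all control libraries, and the open and filled points of trol and vkg separate in the CYC treatments.

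None of the partner chains of *wb* was called in CYC-, where *wb* was lowest. Of the 9 other genes 1 was called in CYC- vs. control at an adjusted p under 0.1, against 3.74% of all genes tested, and that gene was not a laminin. LanA transcripts were at 98.2 to 111.5 CPM in CYC- (median 103.3) and 88.8 to 130.3 in the control (median 112.9), so the CYC- libraries lay within the range of the control. The CYC- line means of *LanA*, 98.8, 105.8 and 106.4 CPM, were below those of the control, 112.8, 109.5 and 116.0, a separation of line means found in 17% of genes tested. The log2 fold changes were -0.12 for *LanA* (approximate 95% interval -0.32 to 0.08, adjusted p = 0.630), -0.07 for *LanB1* (-0.24 to 0.10, adjusted p = 0.772) and 0.11 for *LanB2* (-0.14 to 0.36, adjusted p = 0.757). First and second samples gave like values for the 3 chains, from -0.12 to 0.13 in the first and from -0.13 to 0.07 in the second.

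In CYC+ a pair of the partner chains was lower. Of the 9 other genes 4 were called in CYC+ vs. control, all lower, against 7.02% of all genes tested in either direction and 3.73% lower. They comprised the chains *LanA* and *LanB1* and the integrin subunits *if* and *mew*. *LanA* was at 78.7 and 120.3, 89.7 and 95, and 62.7 and 78.1 CPM in CYC+ lines 1 to 3. The 3 line means lay below those of the control, a separation found in 18.5% of genes tested, although single libraries overlapped. The log2 fold change was -0.37 ± 0.10 (adjusted p = 0.0395). It was -0.23 and no longer called without CYC+ line 3 (adjusted p = 0.170), and -0.34 without control line 3 (adjusted p = 0.117).

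*LanB1*, the only beta chain, was at 54.5 and 92.9, 65.4 and 75.9, and 58.7 and 72.7 CPM in CYC+ lines 1 to 3, against 74.3 to 99.7 in the control. Line means did not overlap, while the library of 92.9 CPM, the second of line 1, lay among the higher control libraries. Its log2 fold change was -0.28 ± 0.09 (adjusted p = 0.0650), near the threshold. It lost the call without CYC+ line 3 (-0.24, adjusted p = 0.164) or without any 1 control line (-0.31, -0.26 and -0.28 without lines 1, 2 and 3). The same held without the first sample of CYC+ line 1 (-0.22) or of CYC+ line 3 (-0.24), the first of control line 2 (-0.24) or the second of control line 3 (-0.24). It was also lost with limma voom and line as a random block (-0.31, adjusted p = 0.109), without the low-count filter (-0.27, 0.101) and in a fit of only the 12 libraries compared (-0.28, 0.310). *LanB2*, the only gamma chain, was at 45.4 to 87.8 CPM in CYC+ and 55.6 to 84.8 in the control, and these ranges overlapped widely. Its log2 fold change of -0.24 ± 0.13 was not called (adjusted p = 0.292), except without the second sample of CYC+ line 1, at 87.8 CPM (-0.38, adjusted p = 0.0547).

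The differences of the laminin chains in CYC+ were larger in the first samples. In first samples alone the log2 fold change from the control was -0.56 for *LanA* (adjusted p = 0.0495), -0.50 for *LanB1* (0.0476) and -0.46 for *LanB2* (0.135). In second samples alone it was -0.20 (adjusted p = 0.555), -0.11 (0.654) and -0.05 (0.934). The direction was kept in both, none of the 3 chains was called in the second samples, and the difference between sample numbers was not tested. With 2 libraries of a line summed, so that 3 lines were set against 3, the values were -0.30 for *LanA* (adjusted p = 0.186) and -0.22 for *LanB1* (0.112).

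The share of *wb* among both alpha chain genes was also computed. Its share in the summed reads per kilobase of *wb* and *LanA* was 19.0% ± 3.08 (SD, n = 3 lines) in the control and 18.5% ± 0.933 in CYC+. It was 13% ± 0.842 in CYC-, 13.6% ± 1.23 in BUT+ and 15.4% ± 3.35 in BUT-. The CYC- libraries, at 12.2 to 14.0%, lay below all CYC+ libraries, at 16.1 to 21.6%, and below all control libraries, at 15 to 23.8%. Because *wb* enters the share, this is a description without a test.

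**Figure D2:**
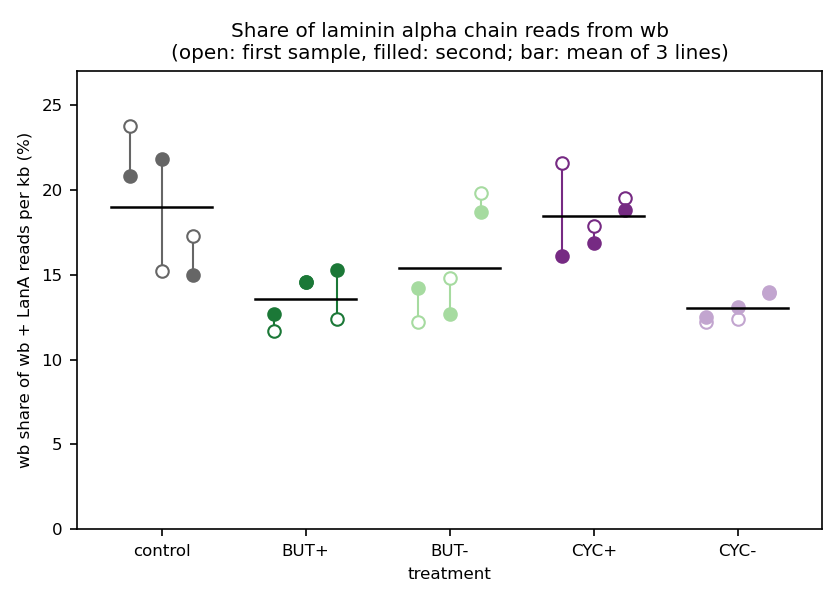
Share of wb in the reads per kilobase of both laminin alpha chain genes, in percent (vertical axis, from 0), for each library of the 5 treatments; open points are first and filled points second samples, and bars are means of 3 lines. CYC- and BUT+ have means of 13% and 13.6%, and the control and CYC+ 19.0% and 18.5%.

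The alphaPS2 integrin gene *if* was called lower than the control in both CYC treatments. Its log2 fold changes in BUT+ (-0.13 ± 0.05, adjusted p = 0.218) and BUT- (-0.15 ± 0.05, 0.118) were also below 0, without a call. *if* was at 111.5 to 132.1 CPM in CYC+ (median 118.7), at 113.9 to 129.7 in CYC- (median 122.7) and at 133.8 to 157.7 in the control (median 144.4). The control libraries did not overlap with either CYC group, a separation found in 1.83% of genes tested for CYC+ and 1.62% for CYC-. The log2 fold change was -0.27 ± 0.05 in CYC+ (adjusted p = 0.00460) and -0.23 ± 0.05 in CYC- (adjusted p = 0.0180). This was the call in CYC- mentioned above. In first and second samples alone it was -0.36 and -0.18 in CYC+ (adjusted p = 0.0495 and 0.154) and -0.27 and -0.20 in CYC- (0.378 and 0.101). The CYC- call was lost without control line 2, the control line with the highest *if* (-0.19, adjusted p = 0.102), and with the libraries of a line summed (-0.22, adjusted p = 0.154).

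The alphaPS1 gene *mew* was at 34.3 to 39.3 CPM in CYC+ and 40.7 to 49.0 in the control, with no overlap. Its log2 fold change was -0.24 ± 0.06 (adjusted p = 0.0173), with -0.25 in first and -0.23 in second samples (adjusted p = 0.103 and 0.216). Here both sample numbers gave the same size of difference. In CYC- it was at 34.6 to 41.3 CPM (log2 fold change -0.17 ± 0.06, adjusted p = 0.111), with -0.12 in first and -0.24 in second samples. It was called without CYC+ line 1 (-0.17), CYC+ line 3 (-0.18) or control line 3 (-0.21). The same held without the second sample of BUT+ line 3 (-0.17), of BUT- line 2 (-0.17) or of control line 3 (-0.19), or the first sample of CYC+ line 1 (-0.17) or CYC- line 2 (-0.20). In BUT- *mew* was called as the only one of the 9 genes, against 4.7% of all genes tested, at 33.8 to 40.8 CPM (-0.19 ± 0.06, adjusted p = 0.0781). That call was lost without BUT- line 2 (-0.14) or 3 (-0.19) and without control line 1 (-0.19) or 2 (-0.14). It was also lost without either sample of BUT- line 2 (-0.18 and -0.15), the second of BUT- line 3 (-0.17), the first of control line 1 (-0.17) or the second of control line 2 (-0.15). *if* in BUT- was at -0.15 ± 0.05 (adjusted p = 0.118) and was called without BUT- line 1 (-0.18), and at -0.15 without CYC+ line 1 or 2, the first sample of CYC+ line 1 or CYC- line 1, or the second of CYC+ line 2. Of 6 glial markers only *alrm* was called lower in BUT- and in BUT+ than in the control. The list medians were -0.04 and -0.03, and the part of *alrm* was not tested.

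The other integrin genes were not called against the control. *scb*, which encodes alphaPS3, was at 26.9 to 44.3 CPM in CYC+ and 27.1 to 35.9 in the control (log2 fold change 0.17 ± 0.09, adjusted p = 0.305). Its sign depended on the sample number, with 0.37 in first and -0.06 in second samples (adjusted p = 0.138 and 0.735). *mys*, the beta subunit that pairs with all these alpha chains, was at 102.1 to 116.7 CPM in CYC+, 103.7 to 116.8 in CYC- and 98.9 to 112.9 in the control. Its log2 fold changes from the control were 0.04 ± 0.05 in both, with approximate 95% intervals of -0.05 to 0.12 and -0.05 to 0.13. Across all 8 comparisons *mys* was never called, and its line means stayed between 99.3 and 121.9 CPM.

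Of the other matrix members, *vkg* did not pass the test in CYC+ vs. control. Its libraries were at 175.7 and 281.0, 172.9 and 236.5, and 174.7 and 251.5 CPM in CYC+ lines 1 to 3, against 220.1 to 300.1 in the control. Every first sample of CYC+ was below every control library, and every second sample was within their range. The log2 fold change was -0.28 ± 0.10 (adjusted p = 0.118). It was -0.59 in first samples (adjusted p = 0.0476) and -0.03 in second samples (adjusted p = 0.881). Single libraries decided the call in the same way, with -0.37 without the second sample of CYC+ line 1 (adjusted p = 0.0323), -0.33 without the second of CYC+ line 3 (0.0783) and -0.33 without the first of control line 1 (0.0975). Without CYC- line 1 or its first sample, which enter only the shared spread, it was -0.28 (adjusted p = 0.0931 and 0.0875). It was also called with DESeq2 (-0.29, adjusted p = 0.0769) and with line and sample number as blocks (-0.30, 0.0603).

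In CYC- *vkg* was at 200.3 to 299.9 CPM (log2 fold change from the control -0.01 ± 0.10, approximate 95% interval -0.21 to 0.19), with -0.14 in first and 0.10 in second samples. *trol* (Perlecan) was not called in either CYC treatment, with log2 fold changes from the control of -0.01 ± 0.11 in CYC+ and 0.02 ± 0.11 in CYC-. Its CYC+ mean hid a split, at 346.4 to 435.1 CPM in first and 561.7 to 582.6 in second samples, with no overlap. The control was at 419.6 to 551.5 CPM, and in first and second samples alone the log2 fold change was -0.29 and 0.21 (adjusted p = 0.237 and 0.260). In CYC- these values were -0.12 and 0.14.

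**Figure D3:**
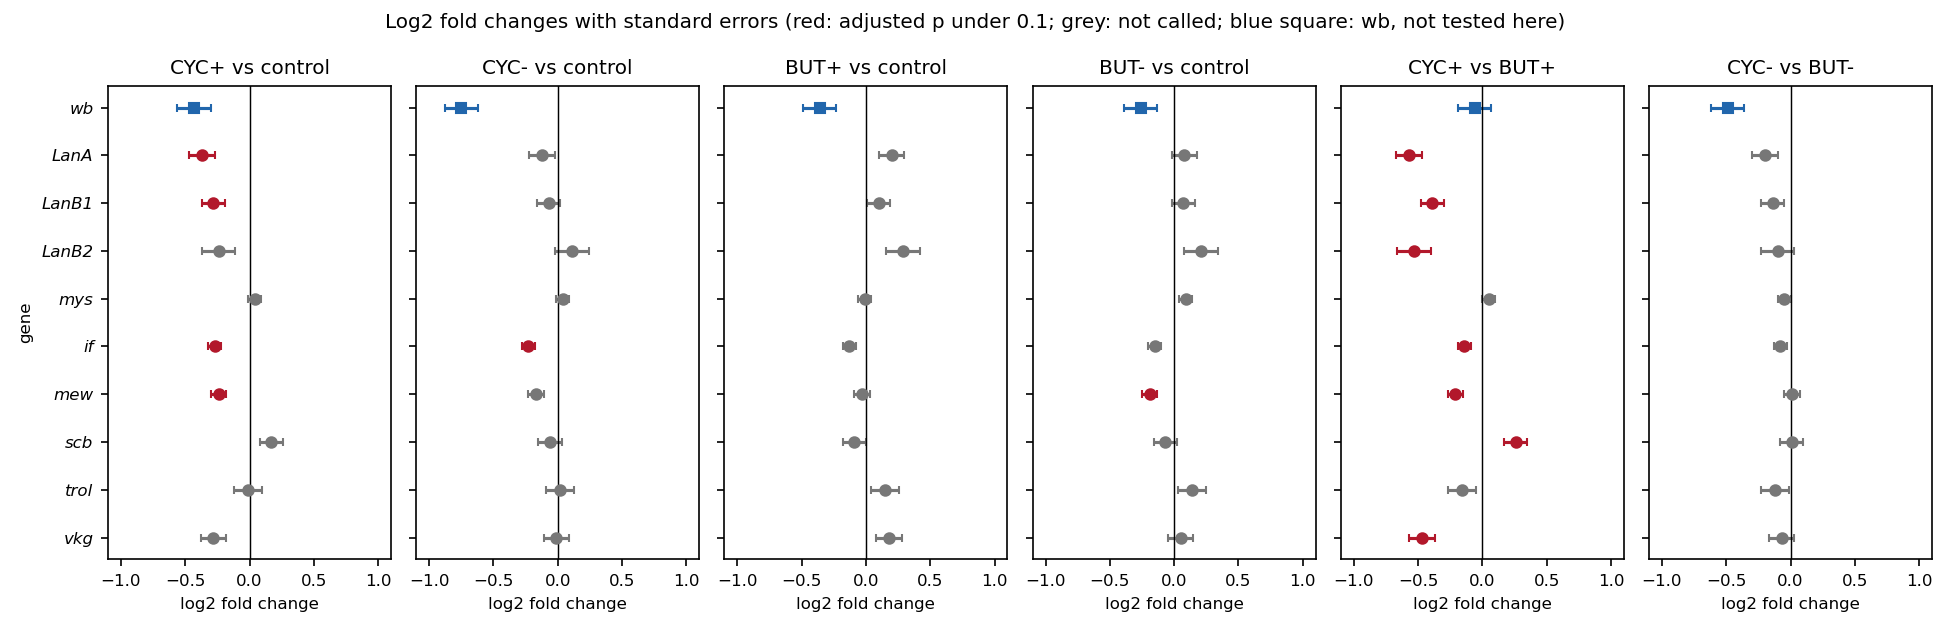
Log2 fold changes (horizontal axes) with standard errors (bars) of the 10 genes (vertical axis) in 6 comparisons; red points passed an adjusted p under 0.1, grey points did not, and blue squares are wb, which was not tested there. In CYC- vs. control wb is at -0.75 while LanA, LanB1 and LanB2 lie at -0.12, -0.07 and 0.11, and 7 red points stand in CYC+ vs. BUT+.

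The CYC+ libraries also differed from the control in markers of other cell types. Hemocytes and fat body are known to secrete basement membrane proteins in *Drosophila*. Of 6 hemocyte markers 5 were tested and 4 were lower in CYC+ vs. control (*srp*, *Hml*, *eater* and *NimC1*), with a median log2 fold change of -0.39. The 6 markers summed to 449.6 to 561.3 CPM in CYC+ and 564.7 to 711.6 in the control, with no overlap. Among all genes tested, 3.73% were called lower in this comparison and 1.83% had libraries without overlap. Of 6 fat body markers 5 were tested and *Yp1* and *Yp2* were lower, with a median of -0.91, and their sums, 20364.5 to 44336.5 CPM in CYC+ and 46802.1 to 80973.7 in the control, did not overlap either. Apart from *He* at 0.227 to 5.35 CPM and *Fbp1* at 0.388 CPM or less in all libraries, these markers were well detected, and *Lsp2* ranged from 0 to 60.7 CPM. No marker of neurons, olfactory neurons, glia, photoreceptors, muscle or trachea was called in that comparison. In CYC- no hemocyte or fat body marker was called against the control, but its second samples lay below all control libraries in both sums. These were at 468.7 to 545.8 CPM for hemocyte and 22015.4 to 31811.5 for fat body markers. First CYC- samples lay within the control range, at 566.6 to 703.0 and 65533.0 to 73016.0 CPM. The part of these cell types in the laminin, integrin and collagen values was not tested.

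Several of the 10 genes had different levels in the first and second samples of the CYC lines, which are given as values without a test. From first to second sample of a line, *trol* was higher by 0.56 on the log2 scale in CYC+ (range over 3 lines 0.42 to 0.70) and by 0.33 in CYC- (0.13 to 0.54). *vkg* was higher by 0.55 (0.45 to 0.68) and 0.25 (0.10 to 0.45). *scb* went the other way, with mean differences of -0.38 (-0.54 to -0.25) in CYC+ and -0.26 (-0.48 to -0.03) in CYC-. In CYC+ *LanA*, *LanB1* and *LanB2* had mean differences of 0.34, 0.43 and 0.36, whereas in CYC- theirs were -0.04, 0.00 and -0.09. In the control the means of all 10 genes lay between -0.05 and 0.05, with lines on both sides of 0 for each. Among all genes tested, 21.7% were higher and 24.9% lower in the second sample of all 3 CYC+ lines, against 11.8% and 9.19% in the control. These shares were 27.9% and 27.7% in CYC-, 17.0% and 16.9% in BUT-, and 14.8% and 13.4% in BUT+. Tracheal and muscle markers moved too, with mean differences of 1.03 and 0.73 in CYC+ and 0.89 and 0.51 in CYC-. Smaller differences of the same sign were present elsewhere, at 0.43 and 0.12 in BUT-, 0.12 and 0.12 in BUT+, and 0.22 and 0.07 in the control. Neuron and glia markers differed by 0.22 and 0.17 in CYC+ and by 0.14 and 0.01 in CYC-. Hemocyte markers differed by 0.02 in CYC+ and -0.32 in CYC-, and fat body markers by -0.62 and -1.34. The part of trachea, muscle, fat body or depth in these shifts was not tested.

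**Figure D4:**
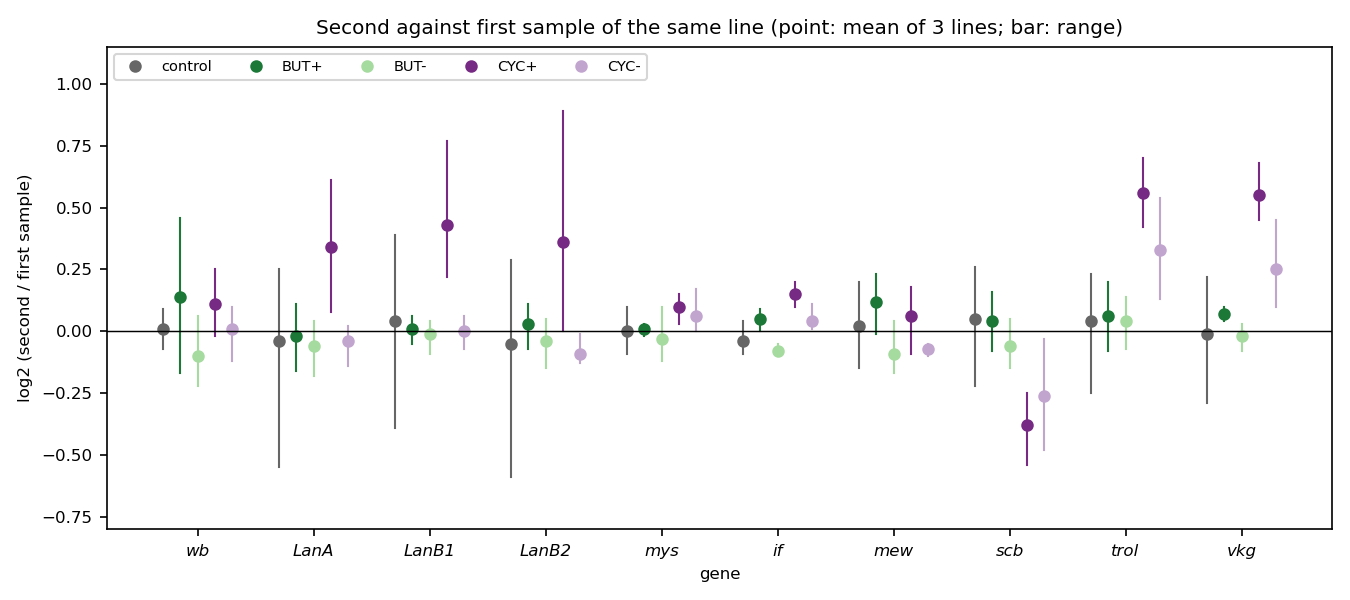
Log2 ratio of the second to the first sample of a line (vertical axis) for each of the 10 genes (horizontal axis) in the 5 treatments; points are means of 3 lines and bars their range. In CYC+ trol and vkg stand at 0.56 and 0.55 and scb at -0.38, while the control means lie between -0.05 and 0.05.

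More of the genes were called between the positive treatments of both odorants than between either and the control. In CYC+ vs. BUT+, 7 of the 9 genes were called, 6 lower and 1 higher, against 16.5% of all genes tested (7.86% lower and 8.68% higher). All 3 partner chains were among them. *LanA* was at 62.7 to 120.3 CPM in CYC+ (median 84.2) and 117.7 to 139.4 in BUT+ (median 131.1), overlapping only in the second library of CYC+ line 1. Its log2 fold change was -0.57 ± 0.10 (adjusted p = 0.00104), that of *LanB2* was -0.53 ± 0.13 (0.0101) and that of *LanB1* was -0.39 ± 0.09 (0.00642). *vkg* was at 172.9 to 281.0 CPM in CYC+ and 283.1 to 313.9 in BUT+, without overlap, a separation found in 5.1% of genes (-0.47 ± 0.10, adjusted p = 0.00545). BUT+ itself was not called against the control for any of the 9 genes, against 2.99% of all genes tested, although 2 (*if* and *LanB2*) had an unadjusted p under 0.05, and DESeq2 and limma voom also called 0. There the laminin partners and *vkg* had values above 0, with 0.20 ± 0.10 for *LanA*, 0.29 ± 0.13 for *LanB2*, 0.10 ± 0.09 for *LanB1* and 0.18 ± 0.10 for *vkg* (adjusted p = 0.343, 0.289, 0.656 and 0.412).

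Among the integrin genes, *mew* was lower in CYC+ than in BUT+ without overlap of libraries, at 34.3 to 39.3 and 39.6 to 47.6 CPM (log2 fold change -0.21 ± 0.06, adjusted p = 0.0176). The difference of *if* was small, -0.14 ± 0.05 (adjusted p = 0.0828). *scb* was the gene that was higher, at 26.9 to 44.3 CPM in CYC+ and 26.5 to 30.3 in BUT+ (0.26 ± 0.09, adjusted p = 0.0679), with 0.46 in first samples (adjusted p = 0.0738) and 0.03 in second samples (adjusted p = 0.874). The call of *if* was lost without BUT+ line 3 (-0.08), CYC+ line 1 (-0.11) or CYC+ line 3 (-0.14), and without the first or second sample of BUT+ line 3 (-0.12 and -0.11) or CYC+ line 1 (-0.12 and -0.14), the second of BUT+ line 1 (-0.14) or the first of CYC+ line 3 (-0.12). The call of *scb* was lost without any 1 BUT+ line (0.24 to 0.27) or without CYC+ line 2 (0.19) or 3 (0.24), and without the first sample of BUT+ line 1 (0.24), BUT+ line 3 (0.26), CYC+ line 2 (0.17) or CYC+ line 3 (0.22). Both calls were also lost, which left 5 of the 9 genes, with the libraries of a line summed (adjusted p = 0.217 for *if* and 0.108 for *scb*) and with limma voom and line as a random block (0.122 and 0.170).

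In this comparison too the values were larger in first samples. For *LanA*, *LanB1*, *LanB2* and *vkg* the log2 fold changes were -0.76, -0.61, -0.72 and -0.74 in first samples (adjusted p = 0.0105, 0.0122, 0.0276 and 0.0105). In second samples they were -0.40, -0.20, -0.37 and -0.25 (adjusted p = 0.136, 0.301, 0.324 and 0.0647), of which that of *vkg* was called. The values of *mew* were -0.18 and -0.24 in first and second samples (adjusted p = 0.166 and 0.143), and those of *if* were -0.19 and -0.09 (0.185 and 0.433). *wb* stood apart from these chains, with a log2 fold change of -0.06 ± 0.13 and libraries of 18.1 to 27.5 CPM in CYC+ and 20.4 to 28.1 in BUT+. Marker sums were again apart, with hemocyte markers at 449.6 to 561.3 CPM in CYC+ and 616.2 to 738.8 in BUT+ (4 of 5 tested lower, median -0.45). Fat body markers summed to 81298.6 to 107065.3 CPM in BUT+ and were lower in CYC+ for 5 of 5 tested, with a median of -1.46. Among all genes tested, 7.86% were called lower in this comparison and 5.1% had libraries without overlap. Of 6 glia markers only *wrapper* was called, and it was lower (list median -0.05). Of 4 tracheal markers only *btl* was called, lower, although the list median was 0.28. Of 3 photoreceptor and 3 olfactory neuron markers, only *ninaE* and *Or92a* were called, both higher (list medians 0.09 for both). The part of these cells was not tested.

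No member was called between treatments of one odorant or between the negative treatments, and DESeq2 and limma voom also called 0 there. In CYC+ vs. CYC-, where 1.54% of all genes were called, an unadjusted p under 0.05 was found for 5 members (*LanA*, *LanB1*, *LanB2*, *vkg* and *scb*). The largest value was -0.35 ± 0.13 for *LanB2* (adjusted p = 0.205). The lack of calls here depended on 1 library. Without the second sample of CYC+ line 1 those 5 genes were called, at -0.36, -0.31, -0.49, -0.36 and 0.29 (adjusted p = 0.0430, 0.0427, 0.0307, 0.0559 and 0.0965). That fit called 266 of all genes tested in this comparison, against 142 in the main fit. In first samples alone the 5 values were -0.44, -0.45, -0.59, -0.45 and 0.28, and in second samples -0.06, -0.01, -0.12, -0.13 and 0.16, with none called in either. Of 5 hemocyte markers tested only *eater* (list median -0.25), and of 6 glial markers only *wrapper* (list median -0.04), was called lower in CYC+ than in CYC-. The part of these markers was not tested. In BUT+ vs. BUT- none was called, against 0.66% of all genes, with 2 at an unadjusted p under 0.05 (*mew* 0.16 ± 0.06 and *mys* -0.10 ± 0.05). In CYC- vs. BUT- none was called, against 0.26%, and none had an unadjusted p under 0.05.

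The wider set of matrix and adhesion genes held 36 genes beyond the 10, of which 33 were tested. *ItgaPS4*, *ItgaPS5* and *Loxl1* had at most 28 counts in a library and were not tested. In CYC+ vs. control 2 of the 33 were called, both lower, against 7.02% of all genes tested (3.73% lower). These were the basement membrane matrix genes *Ppn* (Papilin, a matrix proteoglycan-like protein; 503.4 against 640.0 CPM, log2 fold change -0.35 ± 0.09, adjusted p = 0.0367) and *Pxn* (Peroxidasin, which crosslinks collagen IV; 121.8 against 152.5 CPM, -0.32 ± 0.08, adjusted p = 0.0278). In first and second samples alone *Ppn* was at -0.40 and -0.29 (adjusted p = 0.115 and 0.321, not called). *Pxn* was at -0.48 and -0.16 (0.0773 and 0.515), called in first samples only. Both calls were kept in 14 of 15 fits without 1 line and 30 of 30 without 1 library. Of 12 other settings, 8 kept the call of *Ppn* and 9 that of *Pxn*. In CYC- vs. control none of the 33 was called, with 2 at an unadjusted p under 0.05. In CYC+ vs. BUT+ 7 were called, 6 of them lower, against 16.5% of all genes tested (7.86% lower). Those lower included *Col4a1*, the other collagen IV chain, at 340.1 against 479.5 CPM (-0.50 ± 0.10, adjusted p = 0.00411), beside the -0.47 of *vkg*, with -0.76 in first and -0.29 in second samples. *Ppn* (-0.57 ± 0.09, adjusted p = 0.000672), *Pxn* (-0.42 ± 0.08, 0.00273) and *SPARC*, a collagen-binding matrix protein (-0.24 ± 0.08, 0.0583), were also lower. The call of *SPARC* was kept in 10 of 15 fits without 1 line and 25 of 30 without 1 library. It was not called in first (-0.19, adjusted p = 0.331) or second samples (-0.28, 0.169).

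*Tig* (Tiggrin), a ligand of the integrin with the *if* subunit, was lower in CYC+ than in BUT+, at 172.8 against 285.1 CPM (log2 fold change -0.72 ± 0.14, adjusted p = 0.00292), and kept its size in first (-0.72) and second samples (-0.73). *Plod*, the lysyl hydroxylase that modifies collagen IV before secretion, was lower by the same comparison (-0.55 ± 0.13, adjusted p = 0.00926) and higher in BUT+ than in the control (0.43 ± 0.13, adjusted p = 0.0929). The latter call was kept in 7 of 15 fits without 1 line and 14 of 30 without 1 library, with values of 0.28 to 0.57. Of the 13 genes of the adhesion complex inside the cell, only *Fit2*, a kindlin, was called in CYC+ vs. BUT+ (0.36 ± 0.14, adjusted p = 0.0995) and only *by*, a tensin, in BUT- vs. control (-0.17 ± 0.05, adjusted p = 0.0682). The call of *Fit2* was kept in 4 of 15 fits without 1 line and 6 of 30 without 1 library, and its value was 0.14 in first samples (adjusted p = 0.685) and 0.52 in second samples (0.0305). That of *by* was kept in 11 of 15 and 24 of 30 such fits. *by* was not called in first (-0.09, adjusted p = 0.854) or second samples (-0.25, 0.208). Of 7 genes tested for matrix secretion, crosslinking and remodelling, *Plod* alone was called in any comparison. None of the 4 other matrix receptors (*Dg*, *Dys*, *Sdc* and *Ddr*) was called in any comparison. By list, the median log2 fold change in CYC+ vs. BUT+ was -0.53 for the 3 laminin chains other than *wb* and -0.41 for the basement membrane matrix, and 0.05 for both the integrin subunits and the adhesion complex, against 0.02 for all genes.

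Whether the 10 genes varied together from line to line was examined after the treatment means had been removed, over 15 line means of log2 CPM. Of 45 pairs 5 were called by a permutation test (100000 pairings, two-sided, adjusted over the 45 pairs). That test exchanged the 15 values freely although the treatment means had been removed from them. With lines exchanged only within treatments, in an exact permutation test over 7776 pairings that was added after the data had been seen, no pair was called, and 5 had an unadjusted p of r under 0.05. The p-values of both tests are given below. For *LanA* and *LanB2* r was 0.78 and rho 0.81 (p = 0.00036 and 0.0005, adjusted p = 0.0162 and 0.0225), and r was 0.72 without the 2 lines farthest from the median of *LanA*. Within treatments the exact p of r was 0.0104 (adjusted p = 0.234). For *LanA* and *LanB1* r was 0.71 and rho 0.71 (p = 0.00095 and 0.00371, adjusted p = 0.0214 and 0.0556; r = 0.64 without the 2 farthest lines), and within treatments the exact p was 0.00862 (adjusted p = 0.234). For *LanB1* and *LanB2* r was 0.64 and rho 0.58 (p = 0.0107 and 0.0248, adjusted p = 0.0963 and 0.139; r = 0.45 without the 2 farthest lines), and within treatments the exact p was 0.0577 (adjusted p = 0.371).

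Of *wb* with these chains no correlation was called by either test. Its r was 0.42 with *LanA* (permutation p = 0.125), 0.33 with *LanB1* and -0.15 with *LanB2*. With the beta integrin *mys* it had r = -0.68 and rho = -0.73 (permutation p = 0.00464 and 0.00287, adjusted p = 0.0600 and 0.0556; r = -0.57 without the 2 farthest lines), and within treatments the exact p of r was 0.107 (adjusted p = 0.435). The alpha integrins *if* and *mew* had r = 0.69 and rho = 0.65 (permutation p = 0.00533 and 0.0104, adjusted p = 0.0600 and 0.101). Without the 2 farthest lines r was 0.59, and within treatments the exact p of r was 0.0240 (adjusted p = 0.287). By free exchange, no pair was called with the 2 farthest lines of each pair left out, 11 were in first samples alone and 8 in second samples alone.

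**Figure D5:**
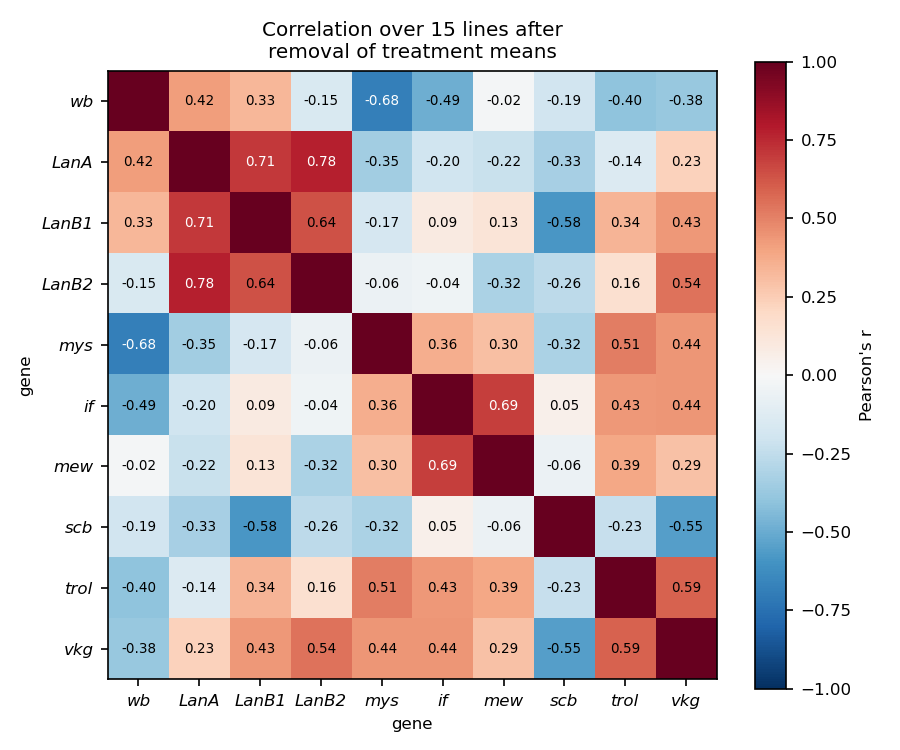
Pearson's r (color scale from -1 to 1, and printed in each cell) between the 10 genes (both axes) over 15 line means of log2 CPM after removal of treatment means. LanA, LanB1 and LanB2 have r of 0.64 to 0.78, if and mew have r = 0.69, and wb and mys have r = -0.68.

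Among all other genes tested, the 5 whose line means were most like those of *wb*, with treatment means kept in, were *pn* and *CG30083* (Pearson's r = 0.86 for both, over 15 lines), *Cp7Fb* and *Ilp3* (0.85 for both) and *NT5E-2* (0.84). *Ilp3* encodes an insulin-like peptide made by neurosecretory cells of the brain and had mean levels over 3 lines of 29.7 ± 5.20 (SD) CPM for the control and 19.6 ± 2.74 for CYC-. *Cp7Fb* encodes a chorion protein and was near the filter, at 1.92 ± 0.291 CPM in the control and 0.757 ± 0.119 in CYC-. The ranking keeps the values of *wb* that chose the list and is a description. Among the 9239 genes ranked by likeness to *wb*, *LanA* was at place 1488 (r = 0.33), *LanB1* at 1928 (0.27), *LanB2* at 5303 (-0.09) and *mys* at 8624 (-0.48).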

How the data were processed

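Adapter removal (Trim Galore), trimming (Cutadapt) and alignment (STAR) were done by the authors, who aligned 100-bp reads to the release 6 genome and deposited whole-number read counts per gene, without normalization. The counting tool and strand setting are not given in the sources used here. Positions and exon lengths came from a later annotation of the same assembly. The 9240 genes that reached 1 CPM in 15 or more libraries were fitted with edgeR 4.0.16 in R 4.3.3 (TMM, quasi-likelihood, 5 treatment means, lines pooled as in the study) and called at a Benjamini-Hochberg adjusted p under 0.1. Standard errors are the log2 fold change over the square root of F. Pooling treats both samples of a line as independent, and their consensus correlation was 0.144. Intervals are approximate, from the normal quantile and the standard error. The members, the wider lists and the marker lists were chosen with earlier results of these data known. All 10 members are named, with every called gene of the wider lists and the 5 genes most like *wb*. Alternatives used DESeq2 1.42.0, limma 3.58.1 (voom), other filters and scaling, and subsets of libraries.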

Additional observations from a re-analysis of the deposited data

Results flagged for a closer look

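Among 50 groups of 6 libraries (10 genes in 5 treatments), 1 held a library far from the others by Dixon's criterion, and chance alone gives about 1 in 20. It was *LanA* in BUT-, where the second sample of line 1 was at 106.7 CPM and the other 5 libraries at 119.7 to 123.7.

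The changes of CYC+ and BUT+ from the shared control differed for 7 genes by edgeR's quasi-likelihood test of CYC+ vs. BUT+, in which the control cancels. The differences (log2, CYC+ minus BUT+) were -0.57 for *LanA*, -0.53 for *LanB2*, -0.47 for *vkg*, -0.39 for *LanB1*, -0.21 for *mew*, -0.14 for *if* and 0.26 for *scb*. Their adjusted p-values stand in the text above, and 16.5% of all genes tested also differed. Hemocyte and fat body marker sums differed between the same libraries, and their part was not tested.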

How the results depend on the processing

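Of 1092 values of single genes refitted under other settings, 1011 were unchanged, 74 lost and 7 gained a call. With 1 line or library left out these were 3949, 119 and 25 of 4095, with 2 values of *wb* that moved (above), and no called value changed sign. Most values in these totals had no call in the main fit to lose, and the untested values of *wb* are included. The lost calls are therefore a much larger share of the calls than of the totals. For CYC+ vs. control the count of 4 became 1 with the libraries of a line summed, 2 with only the 12 libraries compared and 0 in second samples, and ranged from 2 to 6 with a line or library left out. For CYC+ vs. BUT+ the count of 7 became 1 in second samples and ranged from 5 to 7 with a line or library left out. For CYC- vs. control the count of 1 became 2 with DESeq2 and 0 with summed libraries, in first samples and in second samples (0 to 2 with a line or library left out). For BUT- vs. control the count of 1 became 2 with DESeq2 and with line and sample number as blocks, and 0 at an adjusted p under 0.05, without a filter, with summed libraries, with limma voom, with only the 12 libraries compared and in first or second samples (0 to 2 left out). The CYC+ vs. CYC- count was 0 to 5 with a library left out. The 5 correlated pairs became 11 in first samples, 8 in second samples, 14 with treatment means kept, 0 without the 2 farthest lines and 0 with lines exchanged within treatments only, an alternative chosen after seeing the data. Causes of these changes were not tested, and several of those fits hold fewer samples.

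The labels number lines alike in every treatment, but same-numbered lines did not deviate together on average (mean correlation -0.0558, range -0.39 to 0.364 over 30 pairs). These correlations cannot show whether same-numbered lines were founded or collected together, and the main fit did not pair lines. With line number as a replicate block the counts were 4 in CYC+ vs. control, 1 in CYC- vs. control, 7 in CYC+ vs. BUT+ and 1 in BUT- vs. control, as without the block. A gene at 1 CPM had about 21.2 reads in the smallest library.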
